A study of Mus musculus with 6 samples.

Results

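The Nrf2 antioxidant and glutathione genes followed here are Nfe2l2, Keap1, Slc7a11, Gclc, Gclm, Txnrd1, Prdx1, Nqo1, Hmox1 and Sod2, found by the gene symbol of each probe on the platform. These 10 genes, of 10698 with a single symbol, had 13 of 16281 probes. They were measured in RAW 264.7 cells, a mouse macrophage line, that had been stimulated for 48 h with 100 ng/ml of lipopolysaccharide (LPS) and 100 pM of its binding protein (LBP), against RAW 264.7 cells kept untreated for the same 48 h. LPS comes from the outer membrane of Gram-negative bacteria, and LBP is a serum protein that passes LPS on to the receptors of the cell. On each of 6 two-colour arrays the treated and the untreated total RNA competed, 3 arrays carrying the treated RNA in Cy5 and 3 in Cy3, with 1 of each in sets 1, 2 and 3. Nothing in the labels says that the sets were separate cultures, and p-values therefore cover only the spread between sets, which may be technical. The cells are a transformed line and not primary macrophages.

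Nrf2, the product of Nfe2l2, is a transcription factor that Keap1 holds in the cytosol and hands to a ubiquitin ligase. Oxidants and electrophiles modify cysteines of Keap1, Nrf2 escapes and, with a small Maf protein, binds antioxidant response elements of genes that make glutathione, reduce thioredoxin, detoxify quinones and break down haem. In macrophages this programme tempers the oxidative burst and inflammatory gene expression that follow bacterial stimuli. The same cells also raise antioxidant enzymes through NF-kB, of which mitochondrial superoxide dismutase is a known example.

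The promoters of these genes differ in the elements they hold, and the sequences shown here are the windows with an antioxidant response element core, and that of the cystine transporter gene, whose ratio was higher in treated cells. Promoter windows were taken from RefSeq (GRCm38.p6) as the 250 bases before each annotated start, and 8 of the 10 genes matched with 10 windows, all but Gclc and Hmox1. The core searched was TGACNNNGC on both strands, and 10.2% of the 32851 windows of this length held it. Among these 10 windows it was found in 4, those of Nfe2l2, Gclm, Prdx1 and 1 of 3 of Txnrd1. The capitals mark the core, which on the printed strand reads in reverse complement for Gclm, Prdx1 and Txnrd1.
Txnrd1, chr10:82858956-82859205, plus strand: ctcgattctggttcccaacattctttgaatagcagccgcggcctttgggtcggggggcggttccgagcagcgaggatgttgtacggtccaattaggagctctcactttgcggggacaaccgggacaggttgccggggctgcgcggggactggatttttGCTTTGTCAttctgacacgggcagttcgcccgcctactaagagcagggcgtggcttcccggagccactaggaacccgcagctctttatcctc
Gclm, chr3:122245307-122245486, plus strand: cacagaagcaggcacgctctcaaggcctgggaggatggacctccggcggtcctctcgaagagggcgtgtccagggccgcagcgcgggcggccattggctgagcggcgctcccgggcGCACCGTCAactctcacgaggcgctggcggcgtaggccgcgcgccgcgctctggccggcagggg
Prdx1, chr4:116685349-116685598, plus strand: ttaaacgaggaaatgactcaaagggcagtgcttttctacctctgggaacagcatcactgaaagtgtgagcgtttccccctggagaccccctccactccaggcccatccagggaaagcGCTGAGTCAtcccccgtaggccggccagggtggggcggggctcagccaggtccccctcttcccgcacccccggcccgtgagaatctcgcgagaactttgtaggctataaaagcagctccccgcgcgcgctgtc
Nfe2l2, chr2:75704664-75704913, minus strand: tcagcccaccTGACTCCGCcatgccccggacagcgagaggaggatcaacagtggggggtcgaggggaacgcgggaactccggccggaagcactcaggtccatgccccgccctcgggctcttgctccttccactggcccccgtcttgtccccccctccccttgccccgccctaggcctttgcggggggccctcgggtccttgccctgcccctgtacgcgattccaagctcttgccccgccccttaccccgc

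The core began 92 bases before the start in Txnrd1, 134 in Gclm, 133 in Prdx1 and 240 in Nfe2l2. The Gclm window is printed for 180 bases, up to where the annotated gene begins. Its 134 bases are counted to a later start inside the gene, so the core lies closer than that to where the gene begins. The Txnrd1 window lies inside the gene, at one of its internal starts. The core of Prdx1 overlaps an AP-1 motif (TGANTCA, both strands, in 6.75% of all windows), and a second AP-1 motif lies 237 bases before the start. No other window of the 8 genes held the AP-1 motif. The windows of Slc7a11, Nqo1, Keap1 and Sod2 held no core in these letters, which says nothing about elements farther away.

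In the Slc7a11 window the capitals mark TGATGNAA, the letters of composite sites known to bind ATF4 with C/EBP proteins in amino acid starvation. This motif was in 3.45% of all windows and in no other window of the 8 genes searched, and Slc7a11 had 2 copies in opposite orientation, beginning 66 and 47 bases before the start. The window lies inside the annotated gene, which has a longer transcript. Sod2, whose ratio was also higher, had a window with none of the motifs searched, and Hmox1 had no window. Whether the motif bears on the ratio of Slc7a11 was not tested.
Slc7a11, chr3:50443614-50443863, minus strand: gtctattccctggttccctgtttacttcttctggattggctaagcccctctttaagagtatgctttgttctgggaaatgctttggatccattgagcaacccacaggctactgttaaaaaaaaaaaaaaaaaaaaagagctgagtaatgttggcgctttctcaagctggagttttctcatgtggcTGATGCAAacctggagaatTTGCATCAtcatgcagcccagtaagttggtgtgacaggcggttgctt

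The genes did not move as 1 group. Hmox1, Slc7a11 and Sod2 rose in treated cells, by 1.29, 0.81 and 0.76 on the log2 scale. Gclc, Txnrd1 and Nqo1 fell, with mean log2 ratios from -0.99 to -0.70. Nfe2l2, Keap1 and Gclm, at -0.16, 0.02 and -0.15, did not pass the test, and Prdx1 was listed at 0 on all arrays. Of 11 probes tested, 3 were higher and 5 lower, against 14.8% higher and 12.2% lower of all 12724 probes tested (27.1% in either direction). The lower ones include all 3 probes of Txnrd1, so that gene counts 3 times. With probes averaged to genes, 3 of 9 were higher and 3 lower, against 1371 and 1171 of all 9160 genes. The median log2 ratio of the 11 probes was -0.16, against -0.01 over all probes tested.

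Each value is a log2 ratio, treated over untreated, which is a difference and not a level, with the base taken as 2 because the sources used here do not state it. Means are given ± SD over 3 set means, each set mean averaging both dye orientations so that a dye effect cancels. The test was limma on the set means, two-sided, with Benjamini-Hochberg adjustment over all 12724 probes with a ratio other than 0 on all 6 arrays, at an adjusted p under 0.05. Ratios of exactly 0 were treated as missing. With them kept as values limma called 2 of the 13 probes higher (Hmox1 and Sod2) and 1 lower (Gclc), against 5.55% higher and 3.1% lower of all 16281 probes (8.64% in either direction). The mean ratios were the same under both treatments of zeros, since the 11 probes tested held none. The deposited ratios have a median of 0 on every array, zeros included. Without zeros, and with the sign turned, the medians of the arrays ran from -0.02 to 0.01. In bulk RNA fewer cells of a type and less RNA per cell cannot be told apart.

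**Figure D1:**
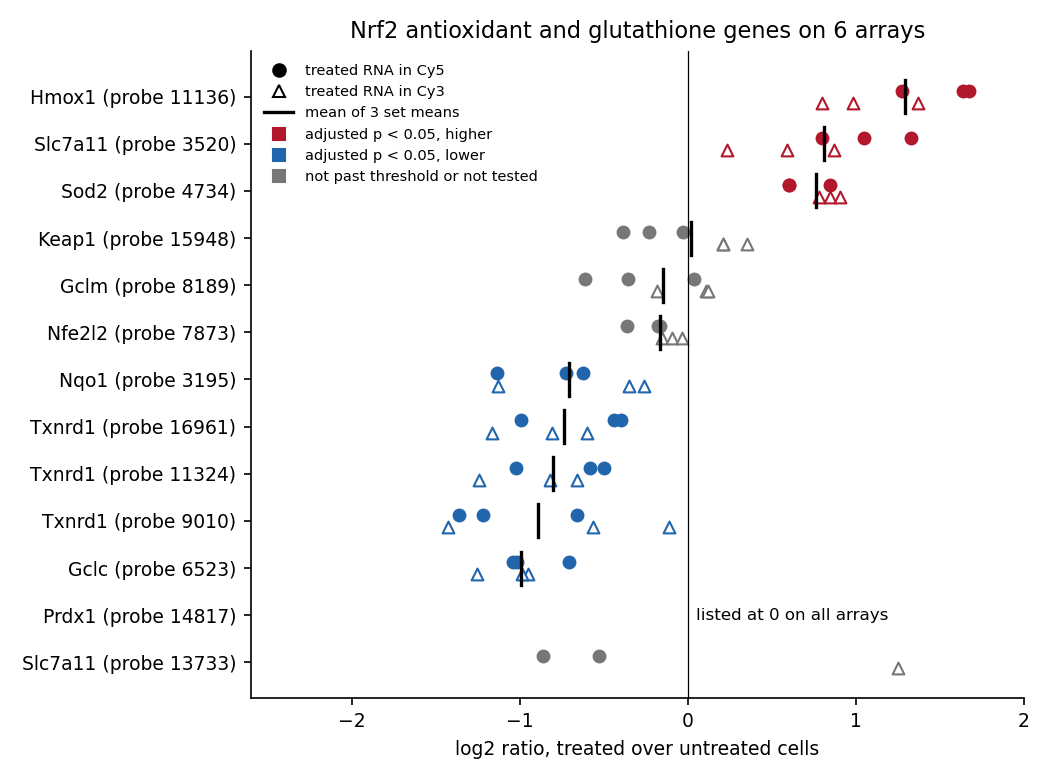
Log2 ratio of treated over untreated cells (horizontal axis) for the 13 probes of the 10 genes, filled circles for arrays with treated RNA in Cy5, and open triangles for arrays with treated RNA in Cy3. Hmox1, Slc7a11 probe 3520 and Sod2 lie right of 0 on all 6 arrays, and Gclc, Nqo1 and the 3 probes of Txnrd1 lie left of 0 on all 6.

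Nfe2l2 read -0.16, -0.36 and -0.18 in sets 1 to 3 where treated RNA was in Cy5, and -0.15, -0.09 and -0.03 where it was in Cy3. All 6 values lay below 0 but close to it, and the mean of -0.16 ± 0.06 (n = 3) did not pass (limma, adjusted p = 0.197), with a 95% interval of -0.36 to 0.03. The 6 arrays lay on 1 side of 0 for 30.2% of all probes tested, so this alone does not set Nfe2l2 apart. Keap1, the repressor, read -0.03, -0.23 and -0.38 in sets 1 to 3 where treated RNA was in Cy5, and 0.35, 0.21 and 0.21 where it was in Cy3. Its sign followed the dye, and the mean of 0.02 ± 0.13 (limma, adjusted p = 0.9, 95% interval -0.19 to 0.23) shows no difference larger than the spread between sets. Nrf2 is known to be controlled mostly through the stability of its protein, which these arrays do not measure.

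Glutathione is made from cysteine, glutamate and glycine. Slc7a11 encodes the light chain of the cystine-glutamate exchanger, which brings in cystine. Its probe 3520 read 1.33, 1.05 and 0.80 in sets 1 to 3 where treated RNA was in Cy5, and 0.87, 0.59 and 0.23 where it was in Cy3. Treated cells were higher on every array, and the mean of 0.81 ± 0.29 (1.76-fold) passed the test (limma, adjusted p = 0.00141). The call was lost with zeros kept (limma, adjusted p = 0.0804). Lower ratios stood on the Cy3 side of each set, and the mean was 1.06 over arrays with treated RNA in Cy5 against 0.56 over the other 3.

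A second probe of Slc7a11, number 13733, did not follow the first. It read -0.53 and -0.86 on 2 arrays with treated RNA in Cy5, and 1.25 on 1 array with treated RNA in Cy3, and was listed at 0 on the other 3 arrays. In other words the Cy3 channel was brighter in all 3 measured hybridisations, whichever RNA it carried. The probe was not tested, and the value for Slc7a11 rests on probe 3520 alone.

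The rate-limiting step of glutathione synthesis is catalysed by glutamate-cysteine ligase, a pair of the catalytic subunit Gclc and the modifier subunit Gclm. Gclc read -0.71, -1.02 and -1.04 in sets 1 to 3 where treated RNA was in Cy5, and -0.95, -0.99 and -1.26 where it was in Cy3. It was lower in treated cells on all 6 arrays, at a mean of -0.99 ± 0.16, which is 1.99-fold lower (limma, adjusted p = 0.00015), the 56th lowest of the 12724 probes. The modifier subunit Gclm, whose promoter is printed above, read 0.04, -0.61 and -0.35 in sets 1 to 3 where treated RNA was in Cy5, and 0.11, 0.12 and -0.18 where it was in Cy3. Values lay on both sides of 0, and the mean of -0.15 ± 0.19 did not pass (limma, adjusted p = 0.32, 95% interval -0.37 to 0.08). Gclc stood below Gclm on all 6 arrays, by 0.85 ± 0.08 over set means, which average the dye orientations. On single arrays Gclc minus Gclm ran from -1.11 to -0.41.

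Thioredoxin reductase 1, encoded by Txnrd1, is the cytosolic selenoenzyme that keeps thioredoxin reduced. It had 3 probes, which carry the same gene symbol and are not replicates of the condition. Probe 11324 read -0.50, -0.58 and -1.02 in sets 1 to 3 where treated RNA was in Cy5, and -0.66, -0.82 and -1.24 where it was in Cy3, at a mean of -0.80 ± 0.29 (1.75-fold lower, limma, adjusted p = 0.0015). Probe 16961 read -0.44, -0.40 and -0.99 in sets 1 to 3 where treated RNA was in Cy5, and -0.60, -0.80 and -1.17 where it was in Cy3, at a mean of -0.73 ± 0.30 (limma, adjusted p = 0.0027). Probe 9010, with the widest spread, read -0.66, -1.22 and -1.36 in sets 1 to 3 where treated RNA was in Cy5, and -0.11, -0.57 and -1.42 where it was in Cy3, at a mean of -0.89 ± 0.50 (limma, adjusted p = 0.00502). Every array gave a negative ratio on every probe, and set 3 was lowest on all 3 probes. The 3 calls were lost with zeros kept (limma, adjusted p = 0.0812 to 0.148), where the same means were tested with 0.76 prior degrees of freedom in place of 6.33. Prdx1, a peroxiredoxin that thioredoxin reduces, had 1 probe, listed at 0 on all 6 arrays, and therefore gives no ratio.

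Nqo1, which reduces quinones by 2 electrons and is a standard Nrf2 target, had 1 probe. It read -0.63, -0.72 and -1.14 in sets 1 to 3 where treated RNA was in Cy5, and -0.35, -0.26 and -1.13 where it was in Cy3. Treated cells were lower on all 6 arrays, at a mean of -0.70 ± 0.37 (1.63-fold lower, limma, adjusted p = 0.00572), with the 2 arrays of set 3 lowest. With zeros kept Nqo1 did not pass (limma, adjusted p = 0.135).

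Hmox1, haem oxygenase 1, opens the haem ring and releases iron, carbon monoxide and biliverdin. It read 1.68, 1.64 and 1.28 in sets 1 to 3 where treated RNA was in Cy5, and 1.37, 0.98 and 0.80 where it was in Cy3. All arrays were well above 0, and the mean of 1.29 ± 0.24 (2.45-fold) was the largest of the 10 genes (limma, adjusted p = 6.75e-05, the 254th highest of the 12724 probes). Sod2, the manganese superoxide dismutase of mitochondria, read 0.60, 0.85 and 0.60 in sets 1 to 3 where treated RNA was in Cy5, and 0.85, 0.91 and 0.78 where it was in Cy3. Its spread was the narrowest of the genes that passed, at a mean of 0.76 ± 0.10 (1.70-fold, limma, adjusted p = 0.000427). Hmox1 and Sod2 passed under every alternative that was run, as did Gclc.

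Gclc, Slc7a11, Txnrd1, Nqo1, Hmox1, Sod2 and Nfe2l2 were then set beside a partner subunit or paralog on the array, with the ratios of a gene's probes averaged per array. The pairs were chosen with results known, and 3 set means cannot bring an exact sign permutation test below p = 0.25, so the differences are given as values with the number of arrays that share the sign. Slc3a2, the heavy chain that pairs with Slc7a11, had 2 probes at a mean of 0.42 ± 0.11, and Slc7a11 was above it on all 6 arrays, by 0.39 ± 0.19. Both probes of Slc3a2 passed (limma, adjusted p = 0.00841 and 0.01), and both lost the call without set 2 (0.0557 and 0.0619), with zeros kept (0.0652 and 0.055) and on arrays with treated RNA in Cy3 alone (0.0998 and 0.147). Txnrd2, the mitochondrial reductase, averaged -0.14 ± 0.07 over 3 probes, and Txnrd1 minus Txnrd2 was -0.67 ± 0.43, negative on all 6 arrays. Nqo2 was at 0.16 ± 0.06, and Nqo1 minus Nqo2 was -0.86 ± 0.32, negative on all 6 arrays.

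Hmox2, the haem oxygenase present without induction in most tissues, was at 0.21 ± 0.08 and did not pass (limma, adjusted p = 0.117), and Hmox1 exceeded it on all 6 arrays, by 1.08 ± 0.33. Sod1, the cytosolic copper-zinc enzyme, was at -0.23 ± 0.16, and the extracellular Sod3 at -0.22 ± 0.10. Neither passed (limma, adjusted p = 0.117 and 0.1), and Sod2 was higher than each of them on all 6 arrays, by 0.99 ± 0.21 and 0.99 ± 0.19. Nfe2l1, the related factor that drives proteasome genes, had 2 probes, at 0.69 ± 0.22 and 0.58 ± 0.13, which both passed (limma, adjusted p = 0.0018 and 0.00225). The first, probe 8028, did not pass with zeros kept (limma, adjusted p = 0.0702). The second, probe 4441, averaged 0.19 over arrays with treated RNA in Cy5, where it did not pass alone (limma, adjusted p = 0.377), and 0.96 over arrays with treated RNA in Cy3. Nfe2l2 lay below the mean of these probes on all 6 arrays, with a difference of -0.80 ± 0.20. The sign of the difference was shared by all arrays in every pair, but the pairs were chosen with results known. How often other pairs of genes share a sign was not computed, so this does not set these pairs apart.

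**Figure D2:**
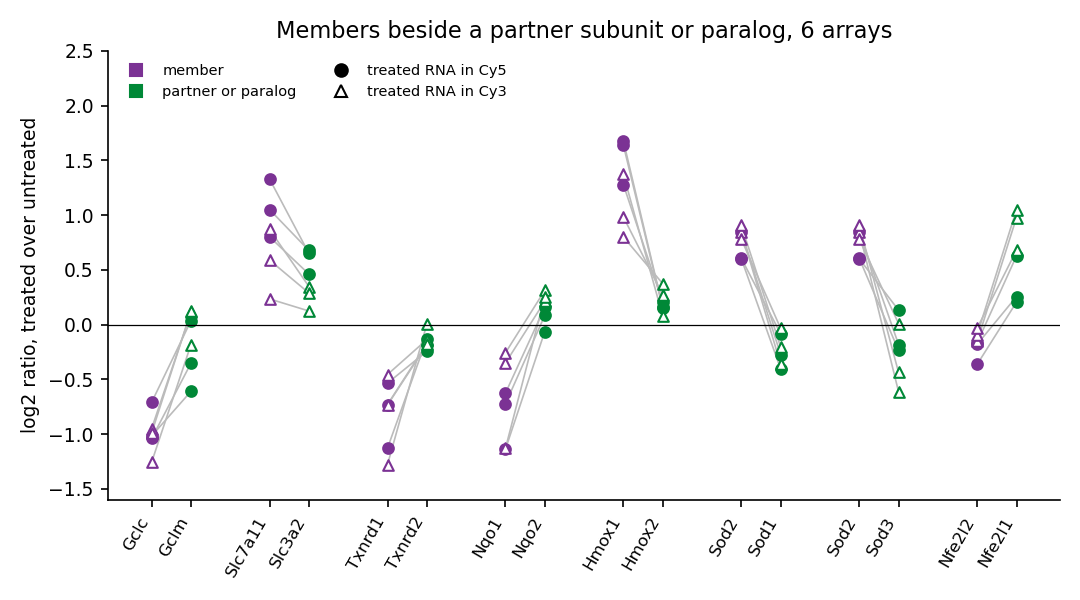
Log2 ratio of treated over untreated cells (vertical axis) for each gene (purple) and its partner subunit or paralog (green), with grey lines joining values of 1 array, filled circles for treated RNA in Cy5 and open triangles for treated RNA in Cy3. The lines of each pair run in 1 direction on all 6 arrays, with mean differences from -0.86 for Nqo1 minus Nqo2 to 1.08 for Hmox1 minus Hmox2.

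Other genes of the pathway were read from 7 lists of 119 genes, of which 94 had probes. Of 112 probes, 98 were tested. Of these 16 were higher and 16 lower in treated cells, 32.7% in all against 27.1% of all probes tested, at a median of -0.03. Without set 2 limma called 8 of these probes higher and 9 lower, and without set 1 it called 10 lower. Calls over all 12724 probes fell as well, from 1887 higher and 1556 lower to 1358 and 833 without set 2. Without set 1 they were 1518 and 1137. Of the 32 list probes called, 15 lost the call without at least 1 set. On arrays of 1 orientation, 11 lost it with treated RNA in Cy5 and 11 with treated RNA in Cy3. With zeros kept 21 of the 32 lost it, among the genes named here Nfe2l1 probe 8028, Mafk, both probes of Slc3a2, Gss, Gstm1, Sesn2, Txnrd2, Msra, Txnl1, Pon2, Cat, Tkt, Me2, Ugdh, Trim16 and Osgin1.

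Among Nrf2 partners and regulators, 4 of 16 probes rose and 0 fell, at a median of 0.13. That is 25% called, close to the 27.1% of all probes tested. The 4 were both probes of Nfe2l1 and the small Maf genes Maff and Mafk, and without set 2 only the probes of Nfe2l1 passed. Maff was at 0.40 ± 0.06 (limma, adjusted p = 0.00953, and 0.0574 without set 2). Mafk was at 0.38 ± 0.17 (limma, adjusted p = 0.0215), and it did not pass without set 2 (0.0659) or without set 3 (0.123). Sqstm1, whose protein p62 can bind Keap1, was listed at 0 in set 1 and read 1.16, 0.89, 0.69 and 0.64 on the other arrays, without a test.

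Genes of glutathione synthesis, use and export went both ways, 7 of 27 probes higher and 3 lower, at a median of 0.02. These calls make 37.0%, against 27.1% of all probes tested. Only 2 of them, Glrx and Chac1, were higher without set 2, and likewise 2 with zeros kept. Glrx, the cytosolic glutaredoxin, rose by 1.66 ± 0.21 (3.17-fold, limma, adjusted p = 1.04e-05), more than any of the 10 genes. Chac1, which breaks glutathione down and is a known target of ATF4, rose by 1.11 ± 0.09 (2.16-fold, limma, adjusted p = 4.69e-05). The glutathione synthetase Gss, which completes synthesis after glutamate-cysteine ligase, was at 0.35 ± 0.09 (limma, adjusted p = 0.0198), a call lost without set 2 (0.066), without set 3 (0.1) and with zeros kept (0.0579). Downward were the transferases Mgst3 at -1.01 ± 0.11 (limma, adjusted p = 9.23e-05) and Gstm1 at -0.93 ± 0.24 (limma, adjusted p = 0.000456), and the glutathione reductase Gsr at -0.73 ± 0.14 (limma, adjusted p = 0.000667). A second probe of Gsr was listed at 0 on all arrays.

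In the thioredoxin and peroxiredoxin system 2 of 18 probes rose and 3 fell, 27.8% called, close to the 27.1% of all probes tested. Sesn2, a stress-induced sestrin, rose by 0.76 ± 0.19, and the endoplasmic reticulum peroxiredoxin Prdx4 rose by 0.44 ± 0.05 on 1 probe and was at 0.19 ± 0.13 on the other, which did not pass. Txnl1, a thioredoxin-like protein, fell on 1 probe, at -0.78 ± 0.20, and was at -0.06 ± 0.11 on another without passing. The methionine sulfoxide reductase Msra fell, at -0.65 ± 0.25, and 1 of 3 probes of Txnrd2 fell, at -0.32 ± 0.17. The single probe of thioredoxin itself, Txn1, read -0.22, -0.09 and -0.37 on 3 arrays and was listed at 0 on the others. Srxn1, the sulfiredoxin that repairs peroxiredoxins and a known Nrf2 target, was at 0.06 ± 0.26 without passing.

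Superoxide and peroxide removal had 0 of 5 probes higher and 2 lower, 40% called against 27.1% of all probes tested. The 2 were catalase (Cat) at -0.71 ± 0.25 (1.64-fold lower, limma, adjusted p = 0.00202, and 0.0799 with zeros kept) and the paraoxonase Pon2 at -0.31 ± 0.19 (limma, adjusted p = 0.0486). In NADPH supply, which feeds glutathione and thioredoxin reductases, 1 of 10 probes rose and 5 fell (60% called), at a median of -0.29. Mthfd2, a mitochondrial folate enzyme, rose by 0.63 ± 0.14. The malic enzyme Me2 (-0.66 ± 0.24) and the pentose phosphate genes Pgd (-0.48 ± 0.10) and Tkt (-0.34 ± 0.12) fell. Pgd did not pass with treated RNA in Cy5 alone (limma, adjusted p = 0.16). Tkt did not pass with treated RNA in Cy3 alone (limma, adjusted p = 0.128). Among haem breakdown and iron storage genes 1 of 6 probes fell, the haem-binding Hebp1 at -0.33 ± 0.04, and 0 rose. That is 16.7% called, below the share of all probes. The ferritin genes Ftl1 and Fth1, known Nrf2 targets, were listed at 0 on all arrays.

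For quinone and carbonyl detoxification 2 of 16 probes rose and 2 fell, 25% called, close to the 27.1% of all probes tested. The aldo-keto reductase Akr1b8 rose by 0.65 ± 0.05 (1.57-fold, limma, adjusted p = 0.000805) and Ugdh, which makes UDP-glucuronate, by 0.34 ± 0.07. Osgin1, an oxidative stress-induced growth inhibitor, fell, at -0.68 ± 0.20 (limma, adjusted p = 0.00165), with a mean of -1.10 over arrays with treated RNA in Cy5 and -0.27 over those with treated RNA in Cy3. It did not pass on the arrays with treated RNA in Cy3 alone (limma, adjusted p = 0.11) or with zeros kept (0.065). Trim16 was at -0.30 ± 0.11 (limma, adjusted p = 0.0406), with -0.52 in the first orientation and -0.08 in the second, and passed in neither alone. Without 1 set at a time, Txnrd2, Pon2, Tkt, Hebp1, Ugdh and Trim16 lost their calls in at least 1 case, besides Maff, Mafk, Gss and both probes of Slc3a2 above. In the NADPH supply list the lower calls numbered 2 without set 1, 2 without set 2 and 3 without set 3. With treated RNA in Cy5 alone, Mafk, Pgd, Pon2, Hebp1 and Ugdh also did not pass. With treated RNA in Cy3 alone, Maff, Gss, Txnrd2, Tkt, Pon2 and Hebp1 did not.

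**Figure D3:**
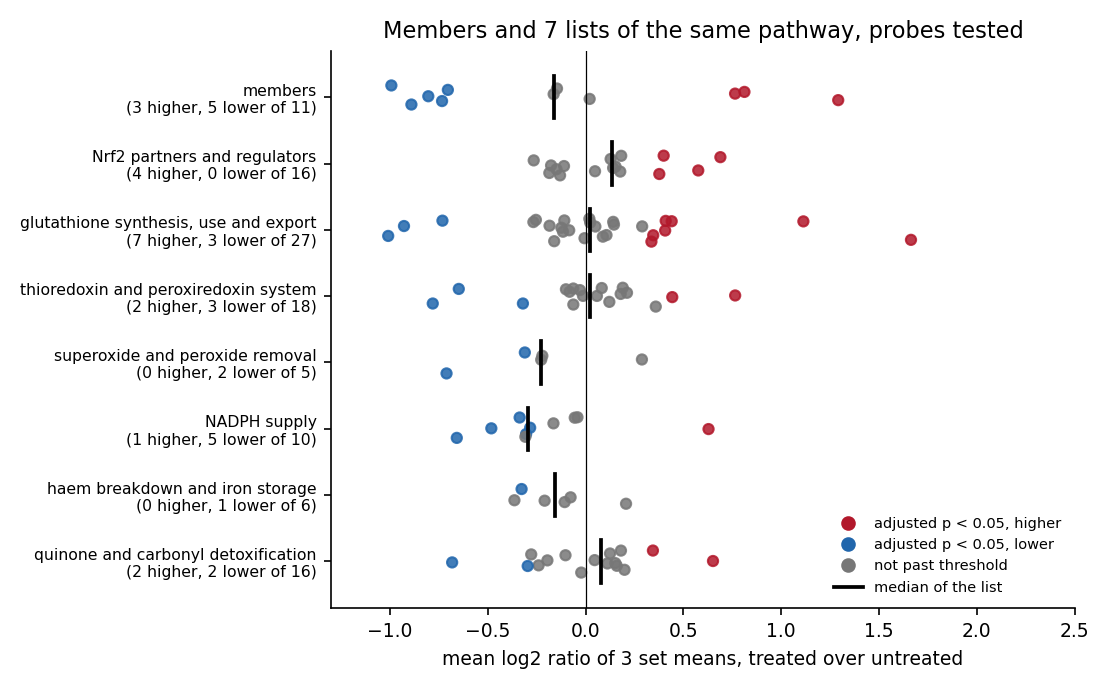
Mean log2 ratio of treated over untreated cells (horizontal axis) of each probe tested, for the 10 genes in the top row and 7 lists of the same pathway below, red for higher and blue for lower at an adjusted p under 0.05, black bars for the median. The 11 probes of the top row lie between -0.99 and 1.29, and the list medians between -0.29 and 0.13.

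Likeness was measured as the Euclidean distance over the 6 log2 ratios among probes of a single other symbol, as a description. The ratios were not centred or scaled, so a small distance reflects similar size as well as similar pattern. How close probes lie in general was not computed. Nearest to Gclc were Ltc4s, the leukotriene C4 synthase, at a distance of 0.26, Gstm1 at 0.32 and Deptor at 0.33. Nearest to Hmox1 were Vegfa (0.44), H2-Q8 (0.46) and Ocstamp (0.53), and nearest to Sod2 were Stard3 (0.15), an immunoglobulin kappa variable segment (0.22) and Cndp2 (0.24). For Slc7a11 probe 3520 they were Rhbdd1 (0.36), P2rx4 (0.37) and Gadd45b (0.49). For Nqo1 they were Abca2, Cdc25b and Usp2, each at 0.50. Txnrd1 probe 16961 lay nearest to Cit (0.26), Angptl4 (0.35) and Tmpo (0.36), and probe 11324 to Cit (0.38), Cxcr4 (0.39) and Foxm1 (0.40). Nearest to probe 9010, at larger distances, were Smpdl3a at 0.61, Nqo1 at 0.73 and Cdc25b at 0.73.

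The 10 genes were also compared between dye orientations. A dye effect, tested on ratios that had not been turned, passed for 0 of 11 probes (limma), against 0.181% of all probes, and 3 of the 11 had an unadjusted p under 0.05, against 26.3% of all probes. For Keap1 and Slc7a11 probe 13733 every measured array of one orientation lay on the other side of 0 from the arrays of the opposite orientation. For the 8 probes that passed, each orientation alone gave the same direction and an adjusted p under 0.05 (limma).

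**Figure D4:**
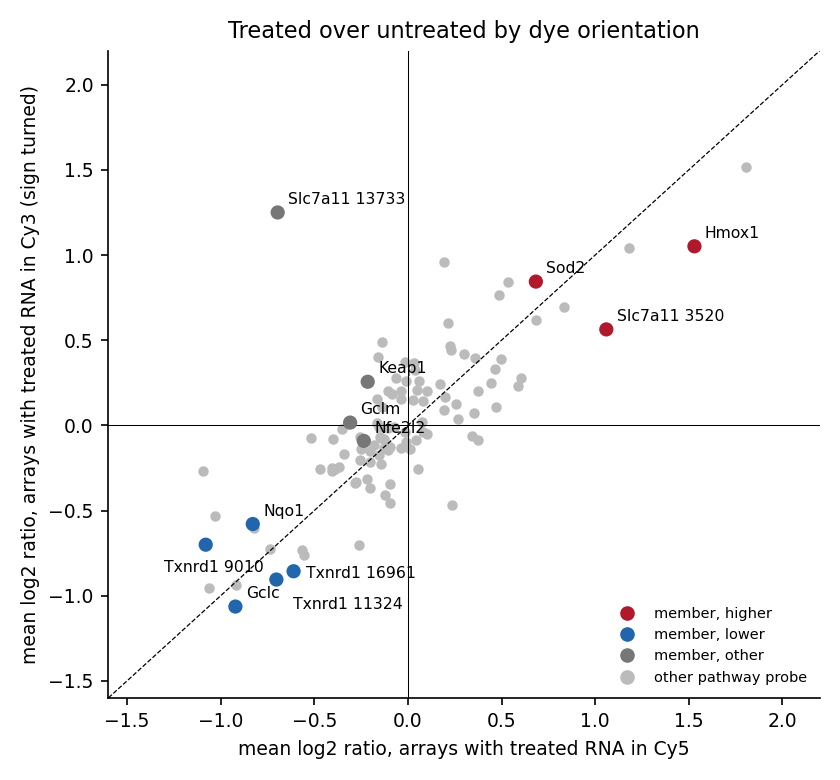
Mean log2 ratio of treated over untreated cells over arrays with treated RNA in Cy5 (horizontal axis) and over arrays with treated RNA in Cy3, sign turned (vertical axis), with the genes labelled except Prdx1, which has no ratio, other pathway probes in grey and the line of equality dashed. Slc7a11 probe 13733, at -0.70 and 1.25, and Keap1, at -0.21 and 0.26, lie in the upper left, where the orientations differ in sign, and Gclm lies just inside it at -0.31 and 0.02.

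Across the series, 7.97% to 17.8% of ratios on an array were exactly 0. Before the sign was turned, the correlation across probes was 0.73 to 0.81 between arrays of the same orientation and -0.69 to -0.44 between arrays of opposite orientation. The sign was taken from the dyes in the labels, and Nos2, Tnf, Il6 and Il1b, which LPS is known to induce in macrophages, were higher on all 9 of their probes, at 0.88 to 3.81. Ratios give no levels, so the cell type could not be checked by its markers. Of 10 macrophage marker probes 3 rose and 1 fell, between -0.53 and 1.96, and among 16 marker probes of other cell types there were 2 that rose and 0 that fell, between -0.26 and 2.68. The 2 were Dcn (2.68 ± 0.95) and Cd79a (0.63 ± 0.11), and their part in the results was not tested.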

How the data were processed

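The authors deposited 1 value per probe and array, read here as the log2 ratio of Cy5 over Cy3, with a median of 0 on every array. How background, dye bias and weak spots were handled, and the base of the logarithm, is not stated in any label or file header read here. The labels in places spell the cell line with another last digit. The dyes of treated and untreated RNA are those per the labels. A natural logarithm would make every fold larger.

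Probes were named through the platform annotation. Of 16281 probes, 13738 had 1 symbol, 52 several and 2491 none, and only those with 1 were named. The sign was turned on arrays with treated RNA in Cy3, ratios of exactly 0 were set to missing, and 12724 probes with a value on all 6 arrays entered limma 3.58.1 (R 4.3.3, lmFit with an intercept and eBayes) as 3 set means. The procedure was tested on simulated data, in which arrays of a set shared no spread and fewer probes were changed than were called here. No per-sample column was left unmapped.

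Members and lists were chosen with earlier results of these data known. Named besides the 10 genes are the up to 3 highest and 3 lowest calls of each list, 3 nearest probes for members that passed at 0.5 or more in size, and the LPS-induced genes. Mafk, Gss, Dcn, Cd79a, Gstm2, Ggct, Prdx2, Txnip, Sqstm1, Txn1, Srxn1, Ftl1 and Fth1 were named after their values were seen. The alternatives were zeros kept, probes with at least 2 complete sets, probes averaged to genes, 6 arrays with a dye term with and without the set as a block, other centring, other scaling, 1 orientation, 1 set left out and a robust prior.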

Additional observations from a re-analysis of the deposited data

Results flagged for a closer look

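In 2 of the 13 probes of the 10 genes every measured array of one dye orientation lay on the opposite side of 0 from every array of the other, and this difference was not past the threshold for Keap1 and was not tested for the second probe of Slc7a11. Keap1 averaged -0.21 with treated RNA in Cy5 and 0.26 with treated RNA in Cy3 (limma for the dye effect, adjusted p = 0.0996). Slc7a11 probe 13733 averaged -0.70 over 2 arrays with treated RNA in Cy5 and read 1.25 on 1 array with treated RNA in Cy3. The same held for 4 of the 112 probes of the pathway lists, those of Gstm2, Ggct, Prdx2 and Txnip.

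Among 45 probes with at least 4 values, 3 had 1 array far from the other arrays by Dixon's criterion, which chance gives in about 1 of 20 cases. They were Chac1 with 1.40 on the array of set 2 with treated RNA in Cy5, Prdx4 probe 723 with 0.21 on the array of set 3 with treated RNA in Cy3, and Tnf probe 12240 with 1.47 on the array of set 2 with treated RNA in Cy5. None of the 10 genes was among them.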

How the results depend on the processing

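The 8 probes of the 10 genes that passed were recomputed under 13 alternatives, and 96 values kept direction and call, 5 kept the direction without passing and 0 changed direction. All 5 came from keeping zeros as values, which left 1 probe lower, and over all probes 903 higher and 504 lower, and in the pathway lists 7 higher and 4 lower. The cause was not tested beyond the prior degrees of freedom, which were 0.76 with zeros kept and 6.33 without. Averaging probes to genes left 3 genes lower in place of 5 probes, since Txnrd1 counts once, at a mean of -0.81 (limma, adjusted p = 0.00311). Arrays with treated RNA in Cy5 only gave 1249 probes higher over all, and 10 lower in the pathway lists. Without 1 set at a time the 10 genes kept 3 probes higher and 5 lower, all probes gave 1358 to 1577 higher and 833 to 1137 lower, and the pathway lists gave 8 to 15 higher and 9 to 12 lower. Deviations of the 2 arrays of a set correlated at 0.53, 0.08 and 0.17, not above 0.1 in every set. With the set as a replicate block over 6 arrays, 1885 probes were higher and 1520 lower, the 10 genes had 3 higher and 5 lower, and the pathway lists 18 and 15, with Trim16 the only list call lost (limma, adjusted p = 0.266). The precision is limited by 6 arrays in 3 sets.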
